A study of Homo sapiens with 4 samples.

Results

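The comparison described here sets Panc1 cells treated with tamoxifen alone against untreated Panc1 cells. Panc1 is an established line of human pancreatic ductal carcinoma cells, grown in medium with fetal bovine serum. RNA was measured on Affymetrix arrays in 4 conditions with 1 array each, of which the array titled Tam and the array titled Untreated make up this comparison. The treated cells had been exposed for 24 hours, and the other arrays held cells given romidepsin, a histone deacetylase inhibitor, without or with tamoxifen. The sources used here give neither the dose nor whether untreated cells received a solvent. Members were all non-control probe sets that the annotation ties to a single gene: 41091 of 54675 probe sets, covering 19775 genes, of which 13051 had a signal to compare.

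Each value is a MAS5 signal, the brightness of a probe set on a linear scale. Signals under 66.4, the median over all non-control probe sets of the 4 arrays, were raised to that floor before log2 was taken, because such dim signals have no reliable order. A gene counted as measured where its signal exceeded the floor on either array, and it is said to rise or fall only where the signals differed by at least 2-fold. Where the lower array lay at the floor, the fold is a lower bound and is written as at least. There were no replicates, so no test was possible, no p-value is given, and variation between cultures was not measured. Each fold describes these 2 arrays.

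Tamoxifen is a selective estrogen receptor modulator, a drug that competes with estrogen for its receptor. It is also a cationic amphiphilic compound, a type known to collect in lysosomes, and it binds the sterol-processing proteins EBP and DHCR7, which together form the microsomal antiestrogen binding site. Cells hold their cholesterol steady through the SREBP transcription factors. When sterol in the endoplasmic reticulum is low, the escort protein SCAP carries SREBP to the Golgi for cleavage, and the released factor turns on genes of cholesterol synthesis and uptake. When sterols are plentiful, INSIG proteins hold the complex back, and the nuclear receptor LXR turns on exporters such as ABCA1 and ABCG1.

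Markers were set against the labelled cell type. Of 12 analysed duct, foregut and carcinoma markers, 8 lay above the floor on both arrays, among them KRT8 at 9154 to 6125, KRT18 at 25361 to 16359 and SOX9 at 6686 to 5669.7 (untreated to tamoxifen), whereas KRT19, CA2, CFTR and PDX1 lay below it on both. Of the markers of other cell types, 0 of 5 islet, 1 of 4 acinar, 1 of 5 blood, 1 of 4 endothelial and 2 of 7 fibroblast genes lay above the floor on each array, and INS, PTPRC, CDH5 and PDGFRB lay below it. The fibroblast genes above it were COL1A1 and DCN, and the summed signal of that list was 9431 untreated and 9383 with tamoxifen. Genes above the floor numbered 12159 on the untreated and 12479 on the tamoxifen array. The ratio of 3′ to 5′ actin probe signals was 1.21 on the untreated and 1.39 on the tamoxifen array, and for GAPDH 1.07 and 1.04. The 18 hybridization spike-in probe sets were 0.781 times as bright on the tamoxifen array as on the untreated array.

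Tamoxifen-treated cells showed more rises than falls. Of 13051 measured genes, 483 (3.70%) rose and 140 (1.07%) fell. Of the rises 425 were measured on both arrays and 58 were bounds, and of the falls 106 and 34. Changes were modest: 40 genes rose and 11 fell by at least 3-fold, and 8 rose and 2 fell by at least 4-fold. The 5th and 95th percentiles of the log2 fold were -0.71 and 0.91 over the 11587 genes measured on both arrays. Rises made up 77.5% of calls, and this split depended on the scaling of the arrays. It was 48.0% (293 rises, 317 falls) with arrays centred on their medians, 63.8% (357 and 203) after quantile normalization, and 98.3% (1526 and 27) when the arrays were scaled to the spike-in controls, which moved the median log2 fold of all genes from 0.01 to 0.33.

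**Figure D1:**
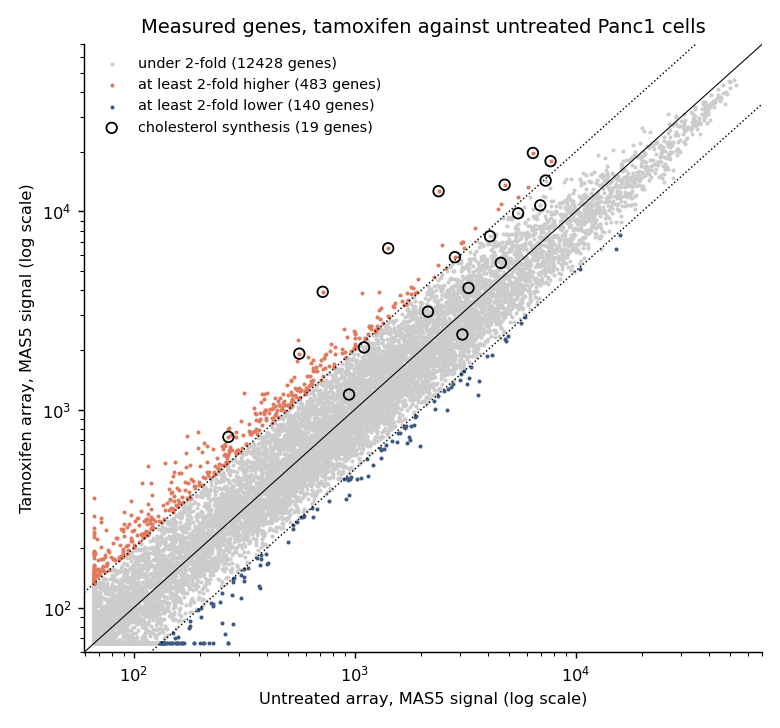
MAS5 signal of each measured gene on the untreated array (x axis, log scale) against the tamoxifen array (y axis, log scale), with signals under the floor of 66.4 drawn at the floor; the solid line marks equal signals and the dotted lines 2-fold. The 483 rises lie above and the 140 falls below the dotted lines, and the 19 circled cholesterol synthesis genes lie on or above the line of equality except PMVK.

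Probe sets give the only repeated measure of a gene here. In 5614 genes at least 2 probe sets lay above the floor on both arrays, and probe sets with an array at the floor were left out. The log2 folds of the brightest 2 differed by a median of 0.22, and the SD over the spike-ins was 0.11. Where the brighter probe set was at least 2-fold higher (227 genes), the other had the same sign in 213 and was itself at least 2-fold higher in 89 (39.2%). Where the brighter was at least 2-fold lower (41 genes), the other had the same sign in 37 and was at least 2-fold lower in 11 (26.8%). Many calls were thus carried by 1 probe set of a gene.

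Cholesterol synthesis genes were higher in tamoxifen-treated cells. Of the 19 pathway genes analysed, 9 rose and 0 fell, against 3.70% and 1.07% of all measured genes. The median log2 fold of the pathway was 0.97, against 0.01 for all genes, and 18 of its 19 genes lay above 0 on the probe set used. The median stayed above 0 under every scaling, from 0.82 with arrays centred on their medians to 1.32 by spike-ins. Without probe sets that can match several transcripts, 12 of the genes had a value and 3 of them rose. All 19 were measured above the floor on both arrays. Of 23 genes on the list, 4 were not analysed here.

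The early, mevalonate-forming steps held the gene that rose most. HMGCS1, which condenses acetyl-CoA units into HMG-CoA, had a signal of 717 in untreated and 3931 in tamoxifen-treated cells, 5.48-fold higher. Its 2 probe sets gave log2 folds of 2.23 and 2.46. ACAT2, the cytosolic thiolase one step earlier, had 4771 in untreated and 13641 in tamoxifen-treated cells, 2.86-fold higher. MVD, which decarboxylates mevalonate diphosphate to the first isoprenoid unit, had 268 in untreated and 728 in tamoxifen-treated cells, 2.71-fold higher. In each of these 3 genes the tamoxifen array was the brighter of the pair, on 1 probe set in ACAT2 and MVD. The mevalonate kinases that act before MVD were not called. MVK measured 943 to 1191, but its 3 probe sets ranged from -0.15 to 0.54 on the log2 scale. PMVK measured 3071 to 2394, a log2 fold of -0.36. On the probe sets used, PMVK was the only gene of the pathway that was lower with tamoxifen.

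Among the isoprenoid-forming enzymes, IDI1, which isomerizes isopentenyl diphosphate, had 2397 in untreated and 12654 in tamoxifen-treated cells, 5.28-fold higher. Its 4 probe sets ranged from 0.22 to 2.40 on the log2 scale, so that the size of this rise depended on the probe set. FDPS, which builds farnesyl diphosphate, measured 7313 to 14315, and GGPS1, which makes geranylgeranyl diphosphate for protein prenylation, 1102 to 2059. With log2 folds of 0.97 and 0.90, these genes were just short of 2-fold.

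In the squalene steps, SQLE, the epoxidase that commits squalene to sterols, had 7695 in untreated and 17939 in tamoxifen-treated cells, 2.33-fold higher, and its 4 probe sets ranged from 1.06 to 1.54. LSS, which closes the ring to lanosterol, measured 4095 to 7492, a log2 fold of 0.87, and its 3 probe sets ranged from 0.87 to 1.18. Both enzymes that act on squalene were thus higher in treated cells, LSS on either side of the threshold by probe set.

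Of the 9 enzymes and cofactors that work on the sterol ring, 4 rose and all 9 lay above 0 on the probe set used. SC5D, the C5 desaturase, had 1417 in untreated and 6517 in tamoxifen-treated cells, 4.60-fold higher, and its 2 probe sets gave 0.95 and 2.20. TM7SF2, a C14 reductase, had 562 in untreated and 1916 in tamoxifen-treated cells, 3.41-fold higher. MSMO1, the C4 methyl oxidase, had 6404 in untreated and 19726 in tamoxifen-treated cells, 3.08-fold higher. The scaffold ERG28, which holds the C4 demethylating enzymes together, had 2840.4 in untreated and 5879 in tamoxifen-treated cells, 2.07-fold higher. These 4 genes span early and late ring steps. The binding partners of tamoxifen had smaller folds: DHCR7, the final reductase, measured 5486 to 9789 and EBP, the sterol isomerase, 6915 to 10735, with log2 folds of 0.84 and 0.63. The 4 probe sets of EBP ranged from -0.16 to 0.78, so that its direction depended on the probe set. HSD17B7 at 0.54, NSDHL at 0.33 and LBR, a C14 reductase that also anchors the nuclear lamina, at 0.26 had the smallest values of the group.

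**Figure D2:**
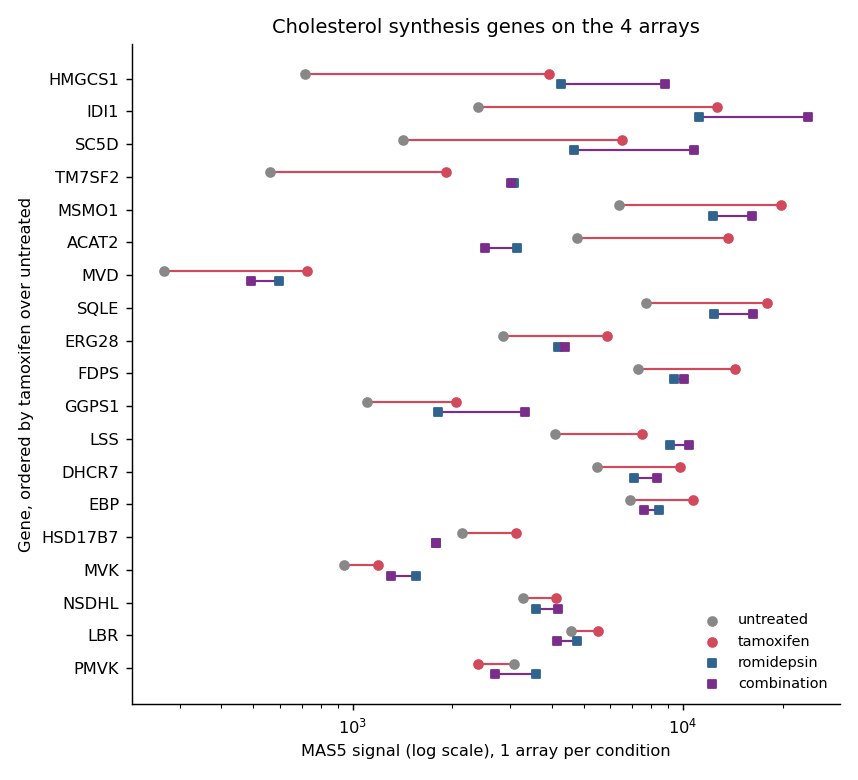
MAS5 signal (x axis, log scale) of the 19 analysed cholesterol synthesis genes on the 4 arrays, 1 array per condition; the upper line of each gene joins untreated to tamoxifen and the lower line joins romidepsin to the combination. The tamoxifen point lies right of the untreated point in 18 genes, whereas the combination point lies right of the romidepsin point in 11.

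Promoters of these genes were searched for letters known from sterol-regulated promoters, since many of the genes rose together. NF-Y binds CCAAT boxes and works beside SREBP in many such promoters. In the 250 bases before the RefSeq start (GRCh38.p14), CCAAT on either strand was found in 13 of the 17 measured pathway genes with a promoter sequence (76.5%), against 34.8% of measured genes and 33.0% of 27305 promoters. The share was also above that of all genes in other lists, at 56.8% for the integrated stress response, 54.1% for DNA replication, 9 of 18 genes for fatty acid synthesis, 45.5% for sterol sensing and uptake, 41.3% for ribosome biogenesis and 36.1% for lysosomal genes. Among all rises it was 36.8% and among all falls 33.3%, both near that of measured genes. The sterol regulatory element in the form TCACNCCAC was found on either strand in 0 of the 17. Only 0.875% of all promoters held it, so 0 of 17 does not tell these genes from others. Other forms of the element were not searched. Shown are the boxes nearest the start in 6 of the genes that rose, with the box in capitals (ATTGG where it lies on the opposite strand) and 24 bases on each side, and then those of STARD4 and INSIG1, which are described next.
HMGCS1 (chr5:43313484-43313536, - strand): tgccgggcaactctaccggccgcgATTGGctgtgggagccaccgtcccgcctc
SC5D (chr11:121292691-121292743, + strand): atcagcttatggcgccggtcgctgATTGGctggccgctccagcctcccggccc
TM7SF2 (chr11:65111774-65111826, + strand): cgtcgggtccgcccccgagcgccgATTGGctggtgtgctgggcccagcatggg
MSMO1 (chr4:165327611-165327663, + strand): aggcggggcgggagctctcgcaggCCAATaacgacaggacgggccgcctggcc
MVD (chr16:88663148-88663200, - strand): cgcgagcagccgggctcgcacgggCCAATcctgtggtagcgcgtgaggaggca
ERG28 (chr14:75660882-75660934, - strand): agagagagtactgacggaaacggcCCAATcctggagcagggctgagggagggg
STARD4 (chr5:111512637-111512689, - strand): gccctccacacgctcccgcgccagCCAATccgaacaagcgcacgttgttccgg
INSIG1 (chr7:155297684-155297736, + strand): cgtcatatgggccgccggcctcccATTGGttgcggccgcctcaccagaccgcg

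These boxes lie 100, 56, 74, 34, 85, 34, 130 and 170 bases before the start, in the order shown. IDI1, which rose 5.28-fold, held no CCAAT in its window. Pathway genes that were not called also held the box: DHCR7, EBP, FDPS, HSD17B7, LSS, MVK and NSDHL. MVK and NSDHL held 5 sites each, at log2 folds of 0.34 and 0.33. GGPS1, LBR and PMVK, also not called, held none. A match is a description of the letters only.

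Of the 28 sterol sensing, uptake and transport genes analysed, 4 rose and 0 fell (3.70% and 1.07% of all genes), and the median log2 fold was 0.23 (0.08 centred on the medians, 0.58 by spike-ins). STARD4, a soluble carrier that moves cholesterol between membranes, had 554 in untreated and 2245 in tamoxifen-treated cells, 4.05-fold higher. INSIG1, itself an SREBP target, had 3490.2 in untreated and 8239 in tamoxifen-treated cells, 2.36-fold higher, and its 3 probe sets lay between 1.17 and 1.24. GRAMD1C, of a family that moves cholesterol out of the plasma membrane, had 104 in untreated and 285 in tamoxifen-treated cells, 2.76-fold higher, and OSBPL8, an oxysterol-binding lipid exchanger, 1261 in untreated and 2927 in tamoxifen-treated cells, 2.32-fold higher, although its 3 probe sets ranged from -0.09 to 1.21. The other regulators named here were not called and lay on both sides of 0. SREBF1, which encodes SREBP-1, measured 1928 to 1136 and SCAP 1940.3 to 1195, at log2 folds of -0.76 and -0.70. A second SREBF1 probe set gave -0.14. SREBF2, which encodes SREBP-2, measured 753 to 916, but its 3 probe sets ranged from -0.49 to 0.73. INSIG2 measured 324 to 600.0, the lysosomal cholesterol carrier NPC2 4933 to 9241, and TMEM97, the sigma-2 receptor that binds NPC1, 4923 to 9403. These 3 were higher by less than 2-fold.

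LXR targets lay mostly below 0. Of 9 measured genes 2 fell and 1 rose (1.07% and 3.70% of all genes), and the median log2 fold was -0.57, below 0 under every scaling tried (-0.72 centred on the medians, -0.63 by quantiles and -0.21 by spike-ins). ABCG1 and ABCA1, the pumps that send cholesterol to lipoproteins, dropped below the floor. ABCG1 had 208 in untreated and 48.3 in tamoxifen-treated cells, at least 3.13-fold lower, and ABCA1 155 in untreated and 37.0 in tamoxifen-treated cells, at least 2.33-fold lower. A second ABCG1 probe set gave a log2 fold of -0.52. With the floor at the 75th percentile of signals, 6 genes of the list were measured, 0 fell and the median was -0.16. The receptor NR1H3 itself measured 749.9 to 383 and MYLIP, a ubiquitin ligase, 472 to 318, each lower by less than 2-fold. Above 0 lay SMPDL3A, a phosphodiesterase, with 501 in untreated and 1052 in tamoxifen-treated cells, 2.10-fold higher, and the desaturase SCD, with a log2 fold of 0.25.

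Some genes of fatty acid synthesis, which SREBP also serves, rose. Among 19 measured there were 4 rises and 0 falls (3.70% and 1.07% of all genes), and the median was 0.16 (0.11 centred on the medians, 0.52 by spike-ins). ACSS2, which makes acetyl-CoA from acetate, had 548 in untreated and 1757 in tamoxifen-treated cells, 3.20-fold higher, and the elongases ELOVL6 and ELOVL7 had 1291 in untreated and 3937 in tamoxifen-treated cells, 3.05-fold higher, and 372 in untreated and 897 in tamoxifen-treated cells, 2.41-fold higher, respectively. ACSL4, which activates arachidonate, had 1422 in untreated and 2978 in tamoxifen-treated cells, 2.09-fold higher. The desaturase FADS2 measured 927 to 1606 and SCD 26061 to 31068, so that the desaturases stayed under 2-fold. Among 30 glycerolipid and phospholipid genes, only the ethanolamine kinase ETNK1 rose (673 to 1563, with 5 probe sets from -0.38 to 1.46) and only the lipid droplet coat protein PLIN3 fell (10437 to 5110.3).

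Among 27 sphingolipid genes there were 3 rises and 0 falls (3.70% and 1.07% of all genes), with a median of 0.23 (0.10 centred on the medians). B4GALT6, a lactosylceramide synthase, had 513 in untreated and 1416 in tamoxifen-treated cells, 2.76-fold higher. SGMS2, a sphingomyelin synthase, had 459 in untreated and 1148 in tamoxifen-treated cells, 2.50-fold higher, and CERT1, which carries ceramide to the Golgi for that step, 513 in untreated and 1226 in tamoxifen-treated cells, 2.39-fold higher. These 3 act on ceramide or lipids made from it, and each had further probe sets with smaller folds of the same sign, down to 0.55, 0.56 and 0.67 on the log2 scale.

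Few lysosomal genes changed. Among 49 measured there were 2 rises and 0 falls, a share near the 3.70% of all genes, and the median was 0.14, which became -0.01 with the arrays centred on their medians. GPNMB, a glycoprotein of melanosomes and lysosomes that responds to lysosomal stress, had 116 in untreated and 516 in tamoxifen-treated cells, 4.44-fold higher, though its second probe set gave a log2 fold of 0.48. NEU1, the lysosomal sialidase, had 49.5 in untreated and 133 in tamoxifen-treated cells, at least 2.01-fold higher. Of 16 proton pump subunits, ATP6V1C1 rose (1305 to 2868). Among 45 autophagy genes and TFEB regulators there were 4 rises and 0 falls (3.70% and 1.07% of all genes), and the median of 0.11 became -0.04 with centred arrays. TP53INP1, which moves to autophagosomes under stress, rose most of the genes with the untreated array at the floor, from 65.9 to 358, at least 5.40-fold. The amino acid sensing GTPase RRAGD had 382 in untreated and 1196 in tamoxifen-treated cells, 3.13-fold higher, RB1CC1, a scaffold that starts autophagosomes, 818 in untreated and 2080.3 in tamoxifen-treated cells, 2.54-fold higher, and the folliculin partner FNIP2 874 in untreated and 2015 in tamoxifen-treated cells, 2.30-fold higher. RRAGD, FNIP2 and GPNMB are known targets of the TFEB and MITF family. The 9 measured genes for TFEB family members and regulators had a median of 0.01, with 5 above 0, and activity of that family was not tested.

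The nuclear estrogen receptors ESR1 and ESR2 had signals near or below the floor on both arrays. The probe set used for ESR1, the estrogen receptor alpha, had 33.3 untreated and 48.1 with tamoxifen, and 122 and 196 with romidepsin and the combination. Of the 9 probe sets of ESR1, 3 lay just above the floor on the untreated array, at 68.2, 70.3 and 77.3, and 0 on the tamoxifen array. Of the 6 probe sets of ESR2, only 1 lay above the floor on each array, the probe set used. On it ESR2 measured 85.0 and 84.8, just above the floor and nearly equal. The progesterone receptor PGR, a classical estrogen target, lay below the floor on both arrays, at 38.0 and 33.2. The membrane estrogen receptor GPER1 went from 44.2, below the floor, to 124, at least 1.87-fold higher and so below the threshold. Of 8 measured coregulators the ER-binding scaffold PELP1 fell, with 898 in untreated and 445 in tamoxifen-treated cells, 2.02-fold lower, and 0 rose. Of all measured genes, 1.07% fell and 3.70% rose. Of 14 estrogen response genes measured 1 rose and 0 fell, 8 lay below 0, and the median log2 fold was -0.12. The rise was the secreted peptide TFF3, with 121 in untreated and 253 in tamoxifen-treated cells, 2.10-fold higher.

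Of 8 measured genes of the aryl hydrocarbon receptor pathway, 2 rose (3.70% of all genes). CYP1B1, a monooxygenase that hydroxylates estrogens and drugs, had 1290.2 in untreated and 3163 in tamoxifen-treated cells, 2.45-fold higher, and its 3 probe sets lay between 1.13 and 1.29. CYP1A1 had 51.5 in untreated and 154 in tamoxifen-treated cells, at least 2.31-fold higher. The receptor AHR measured 1381 to 2649, at a log2 fold of 0.94. Both cytochrome genes that rose are standard readouts of this receptor, but NQO1 measured 6938 to 7251 and AHRR 789.8 to 654.

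Integrated stress response genes were called in both directions. Among 44 measured there were 5 rises and 1 fall, against 3.70% and 1.07% of all genes, and the median of 0.11 became -0.04 with centred arrays. DDIT3, the factor CHOP, had 633 in untreated and 1722 in tamoxifen-treated cells, 2.72-fold higher, and DDIT4, an inhibitor of mTORC1, 1279 in untreated and 2567 in tamoxifen-treated cells, 2.01-fold higher. SLC7A11, the cystine importer, had 493 in untreated and 1328 in tamoxifen-treated cells, 2.70-fold higher, but its 3 probe sets ranged from 0.02 to 1.43. CREBRF, which restrains the unfolded protein response, had 64.5 in untreated and 252 in tamoxifen-treated cells, at least 3.79-fold higher, and KLHL24, a ubiquitin ligase adaptor, 172 in untreated and 514 in tamoxifen-treated cells, 2.99-fold higher. ATF4 itself measured 11957 to 12922. Among 19 amino acid and folate-cycle genes of the list ALDH18A1, which makes proline precursors, fell, with 3963 in untreated and 1857 in tamoxifen-treated cells, 2.13-fold lower. The endoplasmic reticulum oxidase ERO1B rose (97.9 to 245), alone among 25 chaperone and unfolded protein response genes.

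FOXO targets lay mostly above 0. Of 24 measured, 3 rose and 0 fell, against 3.70% and 1.07% of all genes. In all, 20 of the 24 lay above 0, as did 6642 of the 13051 genes measured, and the median was 0.39 (0.28 centred on the medians, 0.73 by spike-ins). Besides KLHL24 these were CCNG2, an atypical cyclin of resting cells, with 616 in untreated and 1834 in tamoxifen-treated cells, 2.97-fold higher, and ARRDC3, an arrestin that directs receptors to degradation, with 627 in untreated and 1328 in tamoxifen-treated cells, 2.12-fold higher. Of the CDK inhibitors, CDKN1C rose, with 718 in untreated and 1598 in tamoxifen-treated cells, 2.23-fold higher, whereas CDKN1A measured 1047 to 1138. BMF, a pro-death BCL2 family member, had 51.8 in untreated and 178 in tamoxifen-treated cells, at least 2.67-fold higher, the only rise among 19 genes of that family and its IAP partners.

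**Figure D3:**
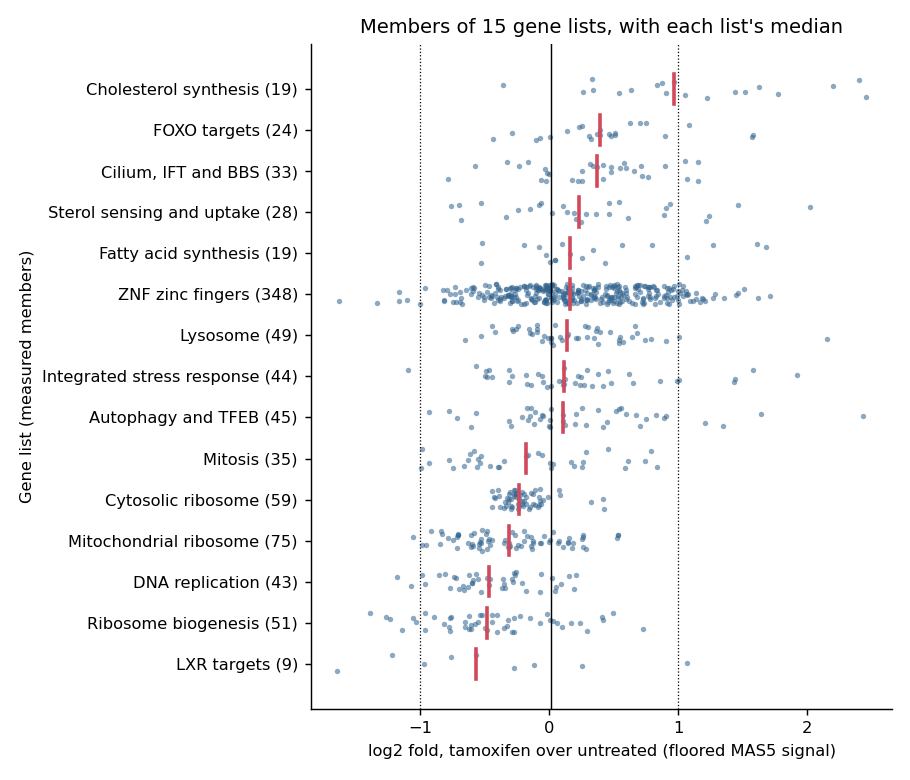
log2 fold of tamoxifen over untreated (x axis) for each measured member of 15 gene lists (points, spread vertically for view), with the list's median as a red bar, the median of all measured genes (0.01) as a solid line and 2-fold as dotted lines. Cholesterol synthesis has the highest median, 0.97, and the LXR targets the lowest, -0.57.

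The 20 largest rises measured on both arrays, among genes whose probe sets all moved in 1 direction, held HMGCS1, IDI1, SC5D, STARD4, TM7SF2 and GPNMB and 14 further genes. DOCK11, an exchange factor for CDC42, had 174 in untreated and 735 in tamoxifen-treated cells, 4.23-fold higher, though its second probe set gave a log2 fold of 0.23. RAB27B, a GTPase that docks secretory vesicles, had 1074 in untreated and 3862 in tamoxifen-treated cells, 3.59-fold higher, and DMXL2, which helps assemble the proton pump on vesicles, 316 in untreated and 1210.5 in tamoxifen-treated cells, 3.83-fold higher. TBC1D8B, a RAB regulator, had 154 in untreated and 546 in tamoxifen-treated cells, 3.55-fold higher. The glycolytic aldolase ALDOC had 139 in untreated and 539 in tamoxifen-treated cells, 3.88-fold higher. CLGN, a chaperone of the endoplasmic reticulum, had 109 in untreated and 425 in tamoxifen-treated cells, 3.90-fold higher, and CHRNB2, a nicotinic receptor subunit, 71.0 in untreated and 284 in tamoxifen-treated cells, 3.99-fold higher. The remaining genes of the 20 were KBTBD3, DEFB124, RMDN2, TRIM2, RNF217, KPNA5 and ZNF680, with folds from 3.28 to 3.96. Of these 20 genes, 13 had untreated signals under 200. The size of some rises depended on the probe set: log2 folds ranged from 0.59 to 1.85 in RAB27B, 0.69 to 1.83 in TBC1D8B and 0.11 to 1.80 in RNF217.

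Of the rises whose untreated signal lay below the floor, TP53INP1, CREBRF and 6 others were the 8 largest. Among them was C2CD2L, a lipid transfer protein at contacts of the endoplasmic reticulum with the plasma membrane, from 25.5 to 242. YPEL2 went from 62.7 to 234, the dehydrogenase DHDH from 58.2 to 227, and DNAAF4, a dynein assembly factor, from 56.7 to 194. The last were TMEM117, at least 2.89-fold higher, and the antisense RNA ASMTL-AS1, at least 4.40-fold higher.

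Intraflagellar transport and Bardet-Biedl genes, which build the primary cilium, lay mostly above 0. Of 33 measured, 4 rose (3.70% of all genes), 0 fell and 23 lay above 0. Their median was 0.37 (0.22 centred on the medians, 0.73 by spike-ins). The count of rises depended on the scaling: it was 2 centred on the medians, 1 by quantiles and 9 by spike-ins. IFT80 had 1191 in untreated and 2641 in tamoxifen-treated cells, 2.22-fold higher, IFT74 123 in untreated and 253 in tamoxifen-treated cells, 2.07-fold higher, WDR19 219 in untreated and 485 in tamoxifen-treated cells, 2.22-fold higher and BBS10 230.0 in untreated and 483 in tamoxifen-treated cells, 2.10-fold higher. Among 348 measured ZNF zinc finger genes there were 27 rises and 5 falls (3.70% and 1.07% of all genes), and the median of 0.16 became 0.01 with the arrays centred on their medians. ZNF302 (151 to 462), ZNF277 (307 to 874, with 3 probe sets from -0.01 to 1.51), ZNF165 (93.1 to 256) and ZNF600 (104 to 283) were among the rises.

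Fewer genes fell than rose. The noncoding RNA VESTAR had 258 in untreated and 73.8 in tamoxifen-treated cells, 3.49-fold lower, and the neuronal amino acid transporter SLC6A17 281 in untreated and 82.5 in tamoxifen-treated cells, 3.41-fold lower. A second probe set of SLC6A17 gave a log2 fold of -0.43. IGFBP3, which binds insulin-like growth factors, had 3629 in untreated and 1191 in tamoxifen-treated cells, 3.05-fold lower, and both its probe sets were at least 2-fold lower. EDN1, the vasoconstrictor endothelin-1, had 1980.2 in untreated and 655 in tamoxifen-treated cells, 3.02-fold lower, though its 3 probe sets ranged from -1.60 to -0.21. CAVIN1, the coat protein of caveolae, had 15268 in untreated and 6437 in tamoxifen-treated cells, 2.37-fold lower, and its 3 probe sets lay between -1.65 and -1.25. The pro-death protein SIVA1 had 3653 in untreated and 1388 in tamoxifen-treated cells, 2.63-fold lower, the folate carrier SLC19A1 1149 in untreated and 464 in tamoxifen-treated cells, 2.48-fold lower, and PDLIM2, which targets the NF-kappaB subunit p65 for degradation, 938 in untreated and 369 in tamoxifen-treated cells, 2.54-fold lower. The 3 probe sets of SIVA1 ranged from -1.40 to -0.41 and the 4 of SLC19A1 from -1.81 to -0.71. The other 12 were NPM2, ESAM, ARID3B, COQ8B, GRWD1, HGH1, ZNF787, DUS3L, NOC4L, INKA1, NOC2L and ZNHIT2, between 2.40- and 2.98-fold lower.

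With the tamoxifen array below the floor, ARHGEF17, a guanine nucleotide exchange factor, had 268 in untreated and 35.4 in tamoxifen-treated cells, at least 4.03-fold lower, and PYCR3, which makes proline, 267 in untreated and 53.4 in tamoxifen-treated cells, at least 4.03-fold lower. The chemokine CCL2 had 199.9 in untreated and 45.8 in tamoxifen-treated cells, at least 3.01-fold lower. XYLB, PCDH12, ABCG1, ZNF296 and KLHL25 complete the 8 largest, at least 2.82- to 3.43-fold lower. Second probe sets of XYLB and ABCG1 gave log2 folds of -0.34 and -0.52. Among 20 NF-kappaB and cytokine genes, the inhibitors NFKBIA (1307 to 637) and NFKBIE (1470.1 to 692) fell besides CCL2. Of all measured genes, 1.07% fell and 3.70% rose. Of 32 genes of the TGF-beta pathway, IGFBP3, EDN1 and COL7A1 fell and SKIL, a SMAD repressor, rose (904 to 1829), but the 2 probe sets of COL7A1 gave -1.31 and 0.01 and the 3 of SKIL ranged from -0.71 to 1.29.

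Genes that build ribosomes lay mostly lower. Of 51 ribosome biogenesis genes 6 fell and 0 rose, 40 lay below 0, and the median was -0.49, against 1.07% of all genes that fell and a median of 0.01. It stayed below 0 under the scalings tried, at -0.63 centred on the medians, -0.48 by quantiles and -0.13 by spike-ins. GRWD1, a histone-binding ribosome factor, had 2604 in untreated and 995 in tamoxifen-treated cells, 2.62-fold lower, and NOC2L, a nucleolar protein of the large subunit, 3235 in untreated and 1347 in tamoxifen-treated cells, 2.40-fold lower. GNL3L had 1063 in untreated and 452 in tamoxifen-treated cells, 2.35-fold lower and MRTO4, which places the stalk of the large subunit, 4173 in untreated and 1895 in tamoxifen-treated cells, 2.20-fold lower. RRP9, a part of the U3 particle, measured 1670.0 to 817 and the helicase DDX56 2792 to 1346, although a second probe set of DDX56 gave 0.39. Cytosolic ribosomal proteins showed a small shift: 54 of 59 lay below 0 with 0 calls, at a median of -0.23, which became 0.00 by quantiles and 0.12 by spike-ins. Of 75 mitochondrial ribosomal proteins 1 fell, MRPL2 (2717 to 1304), and the median of -0.31 became 0.04 by spike-ins.

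DNA replication genes lay mostly below 0. Of 43 measured, 2 fell (1.07% of all genes), 0 rose and 36 lay below 0, with a median of -0.47, which was -0.62 centred on the medians, -0.44 by quantiles and -0.11 by spike-ins. CDT1, which loads the replicative helicase at origins, had 1553 in untreated and 686 in tamoxifen-treated cells, 2.26-fold lower. MCM2, a subunit of that helicase, had 4767 in untreated and 2265 in tamoxifen-treated cells, 2.10-fold lower, and MCM5 measured 4541 to 2288. Of 35 mitosis genes 0 rose and 0 fell, and the median of -0.18 became 0.17 by spike-ins. Its members pointed both ways: CDC20, which activates the anaphase complex, measured 12955 to 6489 and PLK1 2186 to 1145, while CDK1 measured 5149.6 to 9185. MYC measured 5208 to 4042, at a log2 fold of -0.37.

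Other falls among matrix and surface genes were COL5A1 (1703 to 829), the EGF receptor ligand HBEGF (646 to 287), the focal adhesion protein ZYX (1577 to 766) and WNT7B (1319 to 628). Rises in the same lists were LGR4, an R-spondin receptor (728 to 1816), the membrane metalloproteinase MMP14 (74.1 to 185) and CDH1, or E-cadherin (223 to 452). Of 29 genes for histone deacetylases, acetyltransferases and bromodomain proteins 0 rose and 0 fell (3.70% and 1.07% of all genes).

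The called genes differed in features the calls did not use. Genes that rose had a median genomic length of 64.4 kb, against 28.2 kb for all measured genes and 13.5 kb for genes that fell. The share that rose was 1.66% of genes up to 10 kb, 2.50% from 10 to 30 kb, 4.55% from 30 to 100 kb and 6.92% above 100 kb. The share that fell went the other way, from 2.02% to 0.983%, 0.871% and 0.313%. Of the 140 falls 21 lay on chromosome 19, as did 17 of the 483 rises and 7.12% of measured genes. Cholesterol synthesis genes did not share the length of the rises, with a median of 17.9 kb and 0 of 19 on chromosome 19. Median GC content of the promoter sequence was 64.7% for rises, 67.3% for falls and 65.3% for all measured genes.

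The share of calls also differed by signal. Genes above 2000 on the untreated array rose in 0.553% and fell in 0.798% of 3257 cases, with a median log2 fold of -0.18, whereas genes between the floor and 200 rose in 6.06% and fell in 1.32% of 2725. Part of this pattern is fixed by the rule. Genes were grouped by the untreated signal, which is also the baseline of the fold. Those with an untreated signal within 2-fold of the floor could not be called a fall. The part of signal, gene length, the actin ratio and the spike-in difference in the counts of rises and falls was not tested. The 18 rises among the brightest genes included IDI1, MSMO1, ACAT2, SQLE and ERG28 of cholesterol synthesis.

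**Figure D4:**
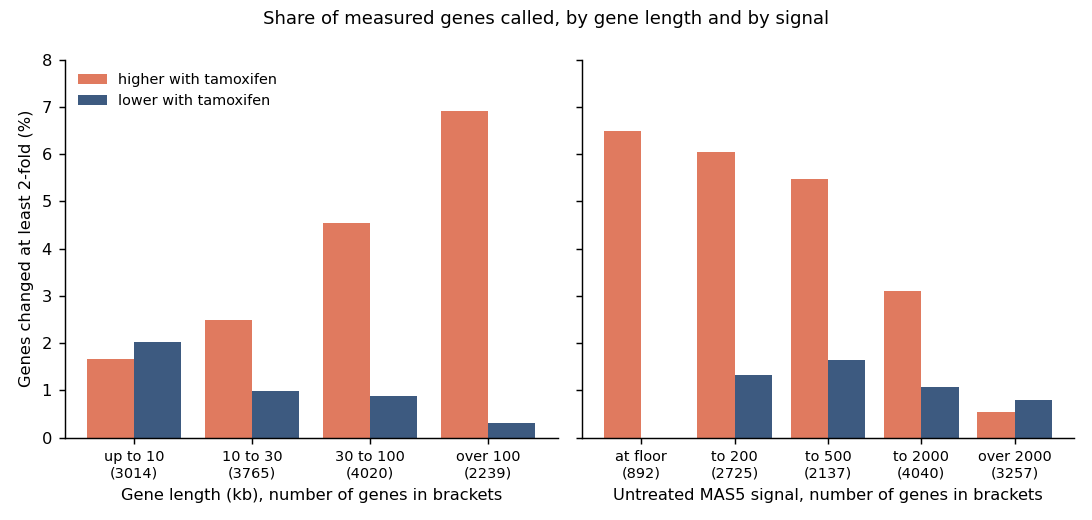
Percentage of measured genes that rose or fell at least 2-fold (y axis), by genomic gene length in kb (left) and by MAS5 signal on the untreated array (right), with the number of genes per bin in brackets. The share that rose increases from 1.66% to 6.92% with length and is lowest, 0.553%, for the brightest genes. Genes at the floor on the untreated array cannot fall.

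A second pair of arrays differs by tamoxifen: cells given both drugs against cells given romidepsin alone. It shares no array with the first pair, so the same genes can be set side by side. In that pair 559 of 13726 measured genes rose (4.07%) and 312 fell (2.27%). Of the 477 genes that rose with tamoxifen alone and were measured there too, 428 (89.7%) were higher with tamoxifen added to romidepsin, against 45.7% of the 12363 genes measured in both pairs, and 164 (34.4%) rose again, against 3.87%. Of 135 falls, 110 (81.5%) were lower and 24 (17.8%) fell again, against 54.3% and 2.39%. The tamoxifen arrays of both pairs also had the higher actin ratio (1.39 against 1.21 and 1.73 against 1.18) and the dimmer spike-ins, and the part of these in the shared directions was not tested.

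The genes that rose in both pairs included GPNMB, at 323 to 1158 from romidepsin to the combination, CLGN at 479 to 1783, DDIT3 at 796 to 2930.4 and DEFB124 at 45.9 to 313. STARD4 measured 1851 to 4150.2 and TP53INP1 638 to 1587. Those that fell in both included EDN1 (555 to 219), CAVIN1 (10055 to 3041), GRWD1 (778 to 336) and CDT1 (494 to 181). RAB27B (361 to 598) and IGFBP3 (8028 to 4523) kept their sign but stayed under 2-fold.

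Cholesterol synthesis was less clearly higher in the second pair. Of its 19 genes 3 rose, HMGCS1 (4277 to 8822), IDI1 (11136 to 23914) and SC5D (4684 to 10803), and the median was 0.10, against 0.97 without romidepsin. ACAT2 measured 3135 to 2504, MVD 599 to 491 and TM7SF2 3073 to 3008, log2 folds of -0.32, -0.29 and -0.03, where tamoxifen alone gave 1.52, 1.44 and 1.77. With the arrays centred on their medians the pathway's median in this pair was -0.00, so its direction there depended on the scaling. INSIG1 stood at 20005 with romidepsin and 24732 with both drugs, against 3490.2 untreated. Romidepsin alone was also above untreated in all analysed pathway genes but ACAT2 (log2 fold -0.61) and HSD17B7 (-0.27). The log2 folds of romidepsin over untreated were 2.58 in HMGCS1, 2.45 in TM7SF2, 2.22 in IDI1, 1.72 in SC5D and 1.16 in MVD. The second pair thus started from a different baseline. The difference between the pairs could not be tested with 1 array per condition.

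Several groups had the same sign in both pairs. In the second pair 4.07% of all genes rose and 2.27% fell. Of 359 ZNF genes 50 rose and 2 fell there (median 0.31), and cilium genes rose in 6 of 33, with a median of 0.40. FOXO targets had a median of 0.44 and autophagy genes of 0.22, the latter -0.04 with centred arrays for tamoxifen alone. DNA replication genes fell in 6 of 43, with a median of -0.48, close to that with tamoxifen alone. Mitosis genes, with 0 calls for tamoxifen alone, fell in 13 of 35 in the second pair, with a median of -0.80. Ribosome biogenesis genes had a median of -0.20 there, which became 0.10 by spike-ins. Fatty acid synthesis genes were an exception, with 0 rises there and a median of -0.04, against 0.16 for tamoxifen alone. The median of -0.04 became 0.02 by quantiles and 0.27 by spike-ins.

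**Figure D5:**
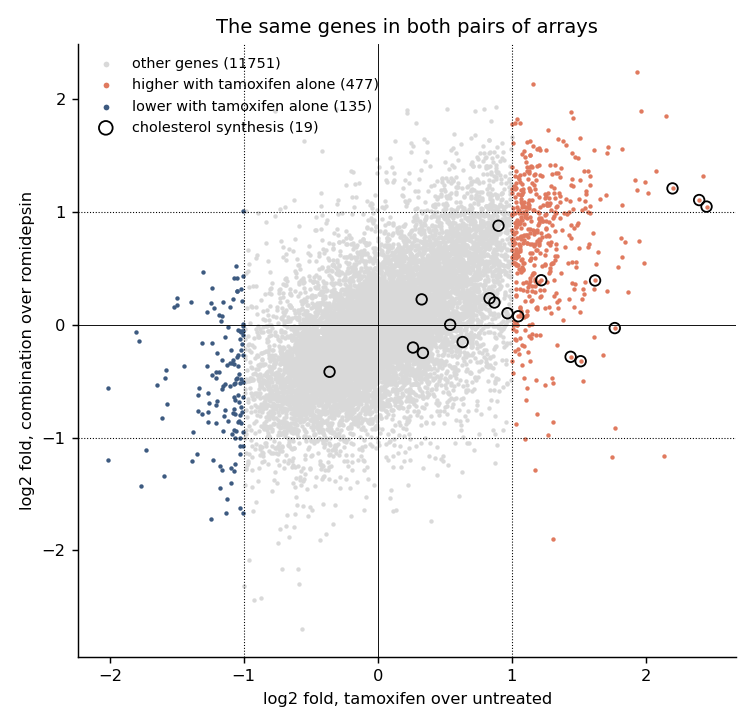
log2 fold of tamoxifen over untreated (x axis) against the log2 fold of the combination over romidepsin (y axis) for the 12363 genes measured in both pairs of arrays; dotted lines mark 2-fold and circles the 19 cholesterol synthesis genes. Of the 477 rises with tamoxifen alone 428 lie above 0 on the y axis, and of the 135 falls 110 lie below it.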

How the data were processed

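Each array was hybridized with biotinylated cRNA copied from 100 ng of total RNA, per the labels' protocols. The deposited values are linear probe-set intensities, computed by the authors with MAS5 according to the submitters' processing notes. Its version is not given in the sources used here. With 2% trimmed at each end, the mean of the deposited signals was 500.1 on each array. The platform annotation names 1 gene for 41091 non-control probe sets, several for 1801 and none for 11721. RefSeq (GRCh38.p14) matched 41037 of the first by Entrez ID and changed 0 symbols. For each gene the probe set brightest on average (log2, 4 arrays) was used, floored at 66.4, and called at 2-fold. Columns of other samples numbered 0.

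The naming rule took the 20 largest rises and 20 largest falls on both arrays and the 8 largest each way with 1 array at the floor. These came from genes whose probe sets moved in 1 direction. The rule also covered up to 6 members of each list, the sterol and estrogen receptor genes, and a fixed short list. Measured members of the sterol and receptor lists that are not described above were not called. FOXM1, CCND1, MKI67 and HMOX1 of the short list, also not called, had log2 folds of -0.59, -0.21, -0.09 and 0.18. SCD and NQO1 were added after their values were seen. The members, the 65 gene lists and the rule were chosen with earlier results of these data known. Of 2200 list genes 108 were not analysed here. With 1 array per group no test was made. Python 3.11.15, numpy 2.4.6, pandas 2.3.3 and matplotlib 3.10.9 were used, and the calling step was tested on simulated data. The number of arrays limits the precision. Alternatives changed the floor, the scaling, the choice of probe set and the offset.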

Additional observations from a re-analysis of the deposited data

Results flagged for a closer look

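Among the genes named, ASMTL-AS1 was called in opposite directions without and with romidepsin. Its log2 fold was 2.14 for tamoxifen over untreated, from 59.3 to 292, a lower bound with the untreated array at the floor. It was -1.16 for the combination over romidepsin, from 148 to 27.4, also a bound. The difference was not tested, since each condition had 1 array.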

How the results depend on the processing

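The counts of calls depended on the floor and the scaling, the median of cholesterol synthesis little. With the floor at the 25th percentile of signals, 1471 genes rose and 749 fell with tamoxifen alone, and 1254 and 828 with tamoxifen added to romidepsin. At the 75th percentile these were 195 and 58, and 266 and 131. Centring the arrays on their medians gave 293 and 317 for tamoxifen alone, and scaling to the spike-in controls 1526 and 27, and 1324 and 89 with romidepsin. Without probe sets that can match several transcripts, 205 genes fell in the pair with romidepsin. The cholesterol synthesis median lay between 0.82 and 1.08 under 7 alternatives and was 1.32 under spike-in scaling, which raised all genes by a median of 0.33. The median of cytosolic ribosomal proteins turned to 0.0016 by quantiles and 0.12 by spike-ins, and that of mitochondrial ribosomal proteins to 0.043 by spike-ins. COL7A1 was at 0.015 without probe sets that can match several transcripts. The cause of these changes was not tested. Of 127 genes named here and called, 58 stayed at least 2-fold under every alternative that gave a value, and 938 of 939 values kept their sign. Why the others lost the call was not tested. A gene within 2-fold of the floor cannot be called a fall. Background correction, scan date and variation between cultures could not be varied here.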

Other observations

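A few genes outside the lists described above also moved. The RAB GTPase RAB8B, which carries vesicles to the plasma membrane, rose from 1183 to 2652, but its 3 probe sets ranged from -0.19 to 1.17 on the log2 scale. KLF12, a repressor of the KLF family, rose from 83.7 to 225, with 3 probe sets between 0.02 and 1.42. ABCA5, a lysosomal member of the ABC transporters, rose from 121 to 264, in contrast to ABCA1 and ABCG1. NDUFA5, of respiratory complex I, rose from 1436 to 2925, the only call among 72 oxidative phosphorylation genes (3.70% of all genes rose and 1.07% fell).

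DNA repair genes were called in both directions: FANCM rose from 98.2 to 218 and FANCG fell from 3041 to 1517, the calls among 16 genes. Of all measured genes, 3.70% rose and 1.07% fell. DNAJB4, a heat shock cochaperone, rose from 519 to 1130.4, the only call among 21 heat shock genes. Of 24 interferon-stimulated genes and 11 metallothionein and zinc transporter genes 0 were called.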
